A study of Mus musculus with 36 samples.

Results

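Decanal, a straight-chain fatty aldehyde with a waxy, citrus-like smell, was compared with no odor in RNA taken from the mouse olfactory epithelium. The comparison used 6 of the 36 libraries of the series, namely 3 from mice given decanal and 3 from control mice of the same labelled batch, and all genes were described, receptors and others. All of these mice were wild-type C57BL/6J males, 8 weeks old. They were kept singly in odor-free chambers for 4 h and then exposed for 90 min, the decanal group to 10 µL of undiluted odorant on filter paper and the control group to paper with nothing on it. The tissue was perfused, and ribosomes carrying phosphorylated ribosomal protein S6 (pS6) were pulled down with an antibody before the RNA was sequenced. The labels call the 3 samples of a group biological replicates and do not say whether tissue from several animals was pooled. Of 57010 gene identifiers, 19514 had enough counts to be tested, and 867 of the 1093 listed intact odorant receptor genes were among them.

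Each mature olfactory sensory neuron expresses, as a rule, 1 odorant receptor gene, a G protein-coupled receptor on its cilia. Odorant binding acts through the G protein Golf and adenylyl cyclase to open a cyclic nucleotide-gated channel, and the neuron fires. Firing leads to phosphorylation of S6 on ribosomes, so an antibody to pS6 enriches the RNA of neurons that were active, and with it the messenger RNA of the receptor that each active neuron carries. Receptors of a fish-like group (class I) and a larger tetrapod group (class II) are sorted by sequence into MOR families. In such bulk libraries fewer cells of a type and less RNA per cell cannot be told apart.

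Libraries held 21751401 to 23718465 counts in the controls and 19687022 to 20396473 with decanal, of which 73904 to 92881 and 87228 to 93873 fell on receptor genes. All 6 markers of mature olfactory sensory neurons were measured, and their summed level was 7829 to 9245 CPM in controls and 14808 to 15540 CPM with decanal, where CPM stands for counts per 1000000 with TMM-scaled library totals. Markers of supporting and gland cells were also present. The groups also differed in RNA that is not specific to neurons. Mitochondrially encoded genes took 0.0523% to 0.0693% of counts in controls and 0.275% to 0.417% with decanal. Red blood cell genes summed to 15516 to 20989 CPM in controls and 39333 to 42114 CPM with decanal. No library of one group reached the range of the other in either measure, and the part of these differences in the results below was not tested. At an adjusted p under 0.05 (edgeR quasi-likelihood test, Benjamini-Hochberg over all genes tested), 4354 genes or 22.3% were called, of which 2102 or 10.8% were higher with decanal and 2252 or 11.5% were lower. With total counts and no scaling factor, the calls were 1590 higher and 2941 lower.

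Decanal shifted which receptor genes made up the receptor RNA. Receptor genes took 0.392%, 0.340% and 0.367% of counts in the control libraries and 0.433%, 0.465% and 0.460% with decanal, so the groups did not overlap. The mean was 1.24 times as high (0.453% ± 0.0175 against 0.366% ± 0.0259, SD, n = 3), with a 2-sided exact permutation p of 0.1, the smallest that 3 against 3 can give. Of the 867 receptor genes tested, 66 were called higher and 58 lower. These are 7.61% and 6.69% of the receptor genes, below the 10.8% and 11.5% called among all genes tested. The receptor calls were large, however. The median change of the 66 was 2.43 on the log2 scale, 45 of them changed by more than 2 and 20 by more than 4. The 58 that fell had a median change of -1.21, and 5 of them changed by more than 2. As a description of genes chosen by the call itself, the 66 held 8.15% to 8.91% of receptor counts in controls and 47.8% to 52.3% with decanal.

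Olfr332 had the smallest p among the receptor genes. Its level was 7.04, 5.42 and 6.43 CPM in the 3 controls and 216.4, 247.9 and 221.6 CPM with decanal, so that it changed by 5.18 ± 0.14 on the log2 scale (SE; adjusted p = 6.68e-11, edgeR). Every decanal library was more than an order of magnitude above every control. Olfr55 was at 4.57, 3.83 and 3.52 CPM in controls and 111.2, 100.3 and 109.5 CPM with decanal (log2 change 4.75 ± 0.17, adjusted p = 8.8e-10). Olfr55 shares at least 95% of its bases over 200 or more with Olfr239 and Olfr1564, so its reads could be split between these genes. Olfr716 was at 4.85, 4.14 and 6.65 CPM in controls and 120.6, 159.4 and 133.8 CPM with decanal (log2 change 4.72 ± 0.21, adjusted p = 7.07e-09). Olfr479 was at 4.17, 5.95 and 4.34 CPM and then at 110.1, 136.8 and 101.0 CPM (log2 change 4.59 ± 0.27, adjusted p = 2.33e-07). The groups were far apart for each of these genes.

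Other receptors rose from a lower control level. Olfr1408 was at 2.07, 1.06 and 1.56 CPM in controls and 92.1, 109.1 and 93.7 CPM with decanal, which at 5.96 ± 0.38 was the largest log2 change of any receptor gene called higher (adjusted p = 3.72e-07, edgeR). Olfr1116 was at 0.517, 0.485 and 0.652 CPM in controls and 27.7, 13.4 and 29.6 CPM with decanal (log2 change 5.41 ± 0.33, adjusted p = 2.34e-07). Its second decanal library was the lowest of the 3 and still far above every control. Olfr1344 was at 0.556, 0.264 and 0.261 CPM in controls and 15.2, 10.9 and 10.6 CPM with decanal (log2 change 5.05 ± 0.38, adjusted p = 2.63e-06). The lowest control level among the 66 was that of Olfr774, with 0, 2 and 2 counts in controls and 22, 8 and 34 counts with decanal, a ratio per total count of 18.0 with an exact 95% interval for counting error of 6.70 to 68.1. The highest was that of Olfr1349, at 34.4, 26.3 and 35.8 CPM in controls and 152.9, 104.6 and 136.0 CPM with decanal (log2 change 2.03 ± 0.19, adjusted p = 1.97e-05). Receptors with both rare and abundant control RNA thus rose.

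The other receptor genes among the 16 with the smallest p were Olfr1383, Olfr509, Olfr1419, Olfr1426, Olfr1254, Olfr117, Olfr776, Olfr1368 and Olfr1420. Their log2 changes ran from 3.00 ± 0.21 for Olfr1420 to 5.10 ± 0.32 for Olfr117, and all adjusted p were at or below 1.39e-06. For all 66 genes the 3 decanal libraries lay above the 3 controls. Over all genes tested, the groups did not overlap for 41.8%. Just inside the call were Olfr424 (log2 change 1.88, adjusted p = 0.0463) and Olfr373 (1.62, adjusted p = 0.0489), and just outside was Olfr353 (1.38, adjusted p = 0.0528).

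**Figure D1:**
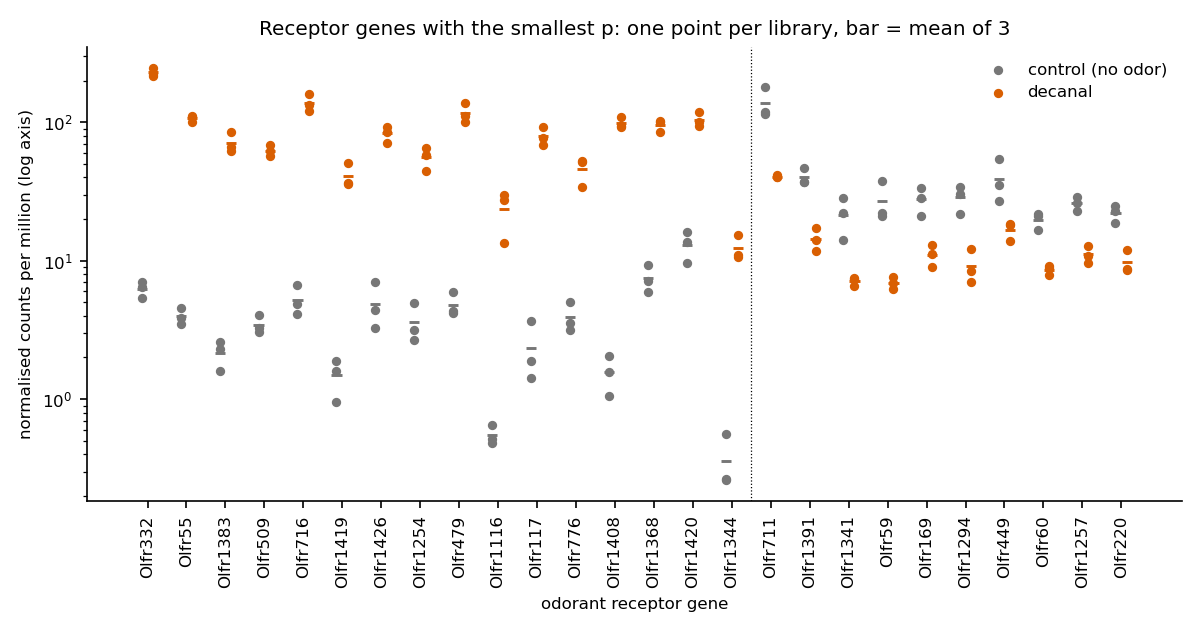
CPM on a log axis for the 16 receptor genes called higher (left of the dotted line) and the 10 called lower (right) with the smallest p; each point is 1 library, grey for control and orange for decanal, and the bar is the mean of 3. Orange lies above grey for all 16 genes on the left, and below it for all 10 on the right.

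Some of the receptors that rose shared a sequence family. MOR267 had 8 of 14 tested members called higher and none lower, with a family median of 1.69 on the log2 scale. MOR111 had 8 of 9 called higher, with a median of 3.06, and MOR266 had 4 of 8, with a median of 1.28. These 3 families held 20 of the 66 genes, out of 31 members tested. Among all receptor genes tested 7.61% were called higher, with a median change of -0.07, and among all genes 10.8%. The 3 families are described because they had many calls, so their shares are high by choice. The 20 genes include near-identical copies that could share reads, such as Olfr775 and Olfr776. MOR256, the largest family here with 44 members tested, went both ways, with 9 called higher and 8 lower. In all, 32 of 207 families tested had a member called higher, and 11 had 2 or more.

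The coding stretches below show how close family members with unlike responses can be. Each gives the 66 bases before the codons of the DRY motif at the end of the third transmembrane helix, a conserved site of G protein coupling, with the 9 bases of those codons in capitals, 5′ to 3′, from the GENCODE vM21 transcripts (GRCm38). The motif was found once in the translated coding sequence of 715 of the 867 receptor genes tested. Olfr332 is shown as the receptor gene with the smallest p, the next 9 are members of MOR267 that did and did not rise, and the last 4 are members of MOR111.
Olfr332: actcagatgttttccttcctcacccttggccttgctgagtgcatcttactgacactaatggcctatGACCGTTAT
Olfr55: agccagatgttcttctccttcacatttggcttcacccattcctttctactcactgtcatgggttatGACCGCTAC
Olfr239: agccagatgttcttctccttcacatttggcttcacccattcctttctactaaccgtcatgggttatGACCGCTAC
Olfr63: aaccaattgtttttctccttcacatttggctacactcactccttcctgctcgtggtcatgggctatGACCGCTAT
Olfr509: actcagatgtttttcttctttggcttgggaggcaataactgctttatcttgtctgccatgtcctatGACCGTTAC
Olfr479: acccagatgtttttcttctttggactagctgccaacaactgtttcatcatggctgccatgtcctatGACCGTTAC
Olfr1408: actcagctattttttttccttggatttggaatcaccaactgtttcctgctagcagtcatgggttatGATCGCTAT
Olfr1406: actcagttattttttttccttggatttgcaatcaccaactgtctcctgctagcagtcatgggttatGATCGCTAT
Olfr218: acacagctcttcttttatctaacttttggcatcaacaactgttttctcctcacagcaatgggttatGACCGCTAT
Olfr1404: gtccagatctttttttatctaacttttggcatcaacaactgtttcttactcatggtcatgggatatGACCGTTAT
Olfr776: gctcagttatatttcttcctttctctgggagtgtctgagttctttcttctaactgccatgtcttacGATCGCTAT
Olfr775: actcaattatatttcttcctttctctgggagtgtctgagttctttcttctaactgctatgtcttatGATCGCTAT
Olfr803: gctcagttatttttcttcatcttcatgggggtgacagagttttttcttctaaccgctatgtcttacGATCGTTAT
Olfr786: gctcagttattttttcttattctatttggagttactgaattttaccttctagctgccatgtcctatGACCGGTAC

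Within MOR267, close relatives could have unlike changes. Olfr1408 and Olfr1406 differ at 3 bases of this stretch and are 92.6% identical over their coding sequence. Olfr1408 changed by 5.96 on the log2 scale, while Olfr1406 changed by 0.56 and was not called (adjusted p = 0.243, edgeR). Olfr55 and Olfr239 differ at 2 bases and are 98.7% identical; they changed by 4.75 and 2.11, values that shared reads could tie together. Olfr63, 71.4% identical to Olfr55, changed by -0.14 and was not called (adjusted p = 0.836). Conversely, Olfr509 and Olfr479 are 77.6% identical to each other and only 54.8% and 54.0% identical to Olfr218, yet all 3 were called higher, Olfr218 by 5.63 (adjusted p = 3.65e-06). In MOR111 the call missed only Olfr786, which changed by 0.90 (adjusted p = 0.0992) and is 71.0% identical to Olfr776. These differences between genes were not tested as such. Over the 16 receptor genes with the smallest p, coding identity between pairs had a median of 53.1% and ran from 47.8% to 77.6%, so the strongest calls were not all close relatives.

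**Figure D2:**
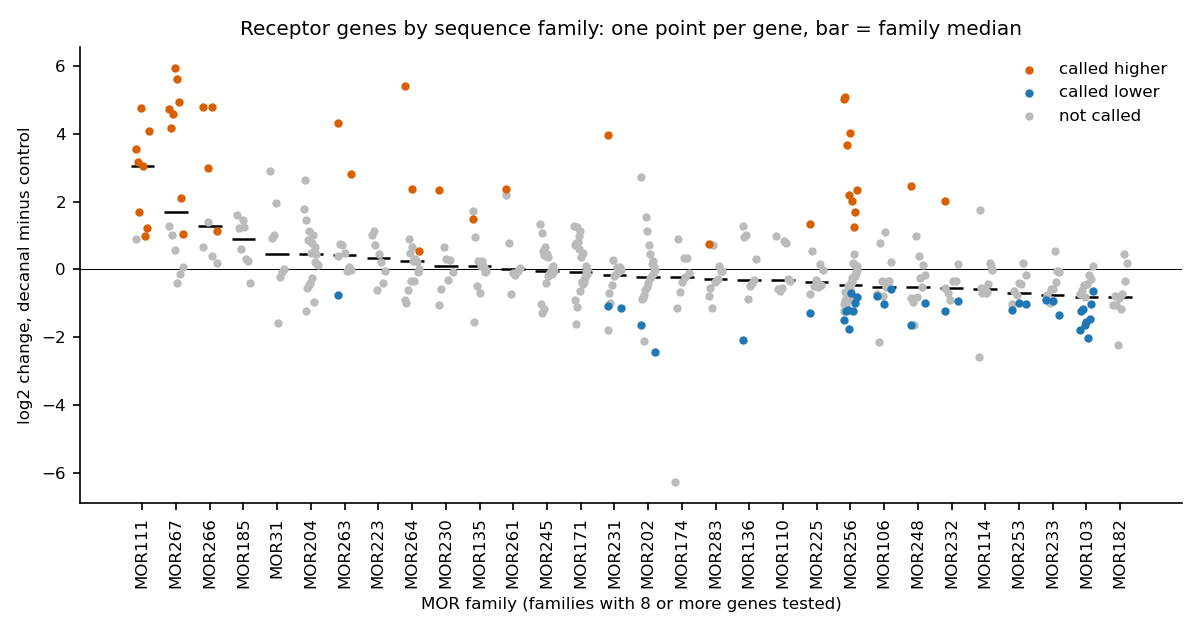
Log2 change, decanal minus control, of single receptor genes (points) in the 30 MOR families with 8 or more genes tested, ordered by family median (bar); orange is called higher, blue called lower and grey not called. MOR111, MOR267 and MOR266 stand at the left with medians of 3.06, 1.69 and 1.28, and MOR103 lies near the right end with 9 blue points and no orange.

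Some of the receptor genes that rose were neighbours among receptor genes. In the order of protein-coding receptor genes in the annotation, 30 of 70 called higher (the 66 and 4 with pseudogene names) stood in 13 runs. Other genes could lie between members of a run. How often receptor genes in general would form such runs was not counted, so only the runs are described. Some runs hold near-identical copies that could share reads, such as Olfr775 and Olfr776. The runs included Olfr774, Olfr775 and Olfr776, then Olfr787, Olfr788 and Olfr789, all of MOR111. Another held Olfr1418, Olfr1419 and Olfr1420 of MOR266. Olfr318, Olfr317 and Olfr316 formed a run with members of MOR285 and MOR256, so neighbours were not always of 1 family. Of the 66 genes, 25 had a near-identical copy, as had 278 of the 867 receptor genes tested.

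Few class I receptors were called. Of 85 tested, 4 were called higher and none lower: Olfr653, Olfr685, Olfr569 and Olfr552, by 1.91 to 3.39 on the log2 scale. Their share is below the 7.61% of receptor genes tested and the 10.8% of all genes called higher. Olfr552 was near the threshold (adjusted p = 0.0442, edgeR), at 1.95, 0.838 and 0 CPM in controls. Of 763 class II receptors, 61 were called higher and 56 lower. Olfr455, which has no numbered family, was also called higher, by 2.07.

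Some genes whose names mark them as pseudogenes, but which the annotation types as protein coding, also rose; they were named after their values were seen. Olfr718-ps1 was at 3.10, 1.63 and 2.56 CPM in controls and 176.5, 212.6 and 183.0 CPM with decanal, and changed by 6.28 ± 0.21 on the log2 scale (adjusted p = 3.71e-10, edgeR). That is the smallest p of any receptor-like gene after Olfr332. Olfr764-ps1 changed by 5.95 (adjusted p = 1.13e-06), Olfr766-ps1 by 5.53 (adjusted p = 1.39e-06) and Olfr1326-ps1 by 2.68 (adjusted p = 2.08e-05). Of 33 such genes tested, these 4 were called higher and 3 lower, shares near the 10.8% and 11.5% of all genes. Of 11 receptor genes typed as pseudogenes, 1 was called higher: Olfr1372-ps1, with a log2 change of 1.76 (adjusted p = 0.0153, edgeR). Its transcript shares a near-identical stretch with that of Olfr1383.

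The receptor genes that fell were mostly abundant in controls, though their control levels ran from 0.595 to 138.5 CPM. A fall is harder to call from few counts, and the comparison of levels below does not allow for this. The median control level of the 58 was 16.5 CPM, against 2.19 CPM for the 66 that rose and 1.37 CPM over all receptor genes tested. Olfr711 was at 181.1, 115.4 and 119.2 CPM in controls and 41.4, 39.9 and 40.2 CPM with decanal, and changed by -1.77 ± 0.17 on the log2 scale (adjusted p = 2.2e-05, edgeR). The control libraries of Olfr711 were spread, while its decanal libraries were nearly equal. Olfr1391 was at 36.9, 46.7 and 37.1 CPM in controls and 11.7, 17.3 and 14.1 CPM with decanal (log2 change -1.48 ± 0.19, adjusted p = 0.000182). Olfr59 was at 37.3, 22.2 and 21.1 CPM and then at 6.29, 7.67 and 6.85 CPM (log2 change -1.95 ± 0.29, adjusted p = 0.000439). The others with the smallest p were Olfr1341, Olfr169, Olfr1294, Olfr449, Olfr60, Olfr1257 and Olfr220, which fell by 1.18 to 1.64 on the log2 scale. For 57 of the 58 genes the groups did not overlap. Olfr898 was the single gene called lower with every decanal library at 0 counts: controls held 3, 23 and 15 counts, at least 4.14-fold more per total count than a floor of 3 counts per library.

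MOR103 had 9 of 17 tested members called lower and none higher, with a family median of -0.80, where 11.5% of all genes were called lower. Control 1 was the highest control for 7 of the 9, and without it 7 members were called lower, with a family median of -0.76. Olfr6 was at 81.8, 18.3 and 20.2 CPM in controls and 9.81, 10.4 and 9.12 CPM with decanal, and its log2 change of -2.04 became -0.98 without control 1. For Olfr414 the change of -1.56 became -0.94, and for Olfr524 -1.48 became -0.98. Olfr711, Olfr449 and Olfr220 belong to it. So does Olfr2, known as a receptor for octanal, which was at 4.01, 3.79 and 3.48 CPM in controls and 3.02, 1.23 and 2.22 CPM with decanal and was not called (log2 change -0.80 ± 0.47, adjusted p = 0.242). MOR106, MOR233 and MOR253 had 3 called lower of 13, 15 and 10 tested, and none higher.

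The control libraries of this batch were themselves high for these genes. With library totals in place of scaled ones, the 58 genes had a median of 17.3 CPM in these controls, 5.81 and 12.8 in the no-odor controls of the other 2 batches and 7.51 with decanal. For 27 of the 58 genes all 3 control libraries lay above all 6 no-odor libraries of the other batches, which was so for 72 or 8.30% of the receptor genes tested. Olfr711 was at 25.9 and 54.2 in the other no-odor groups, 145.1 here and 39.9 with decanal. The call used these controls, so it favours genes that are high in them. Over the 66 genes that rose, the medians of the 3 no-odor groups were 2.29, 2.15 and 2.08, and that of decanal was 17.2. All 3 controls of this batch lay above the other no-odor libraries for 3 of these genes and below them for 1. Single genes differed more: Olfr77 was at 2.61 here, 6.82 and 0.615 in the other no-odor groups and 4.50 with decanal. Levels across batches were not tested.

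Acetophenone, an aromatic ketone given at the same volume in the same batch, was compared with decanal directly. Receptor genes called higher with decanal numbered 84 of 867 and those called higher with acetophenone 184, where 12.9% and 16.5% of all genes were called in these directions. Of the 66 genes that rose over control with decanal, 58 were also above acetophenone, 2 were below it and 6 were not apart from it. The same decanal libraries entered both comparisons, so choosing genes by the first favours this outcome. The same holds for the genes that fell with decanal. Olfr716 had the largest such difference among the 6 with the smallest p: decanal 137.9 ± 19.7 CPM, acetophenone 2.00 ± 0.24 CPM and control 5.21 ± 1.29 CPM (SD, n = 3), a log2 difference of 6.10 ± 0.23 (adjusted p = 1.31e-09, edgeR). The same test put Olfr332, Olfr55, Olfr1383, Olfr509 and Olfr1419 above acetophenone by 3.86 to 5.39 on the log2 scale. In the other direction Olfr736, of MOR106, was at 0.710 CPM with decanal, 61.5 CPM with acetophenone and 1.46 CPM in controls (log2 difference -6.43 ± 0.28, adjusted p = 5.13e-09). Olfr913, Olfr895, Olfr1104, Olfr1026 and Olfr491 were also lower with decanal than with acetophenone, by 3.41 to 6.11. Of the 58 genes lower than control with decanal, 36 were also below acetophenone, none were above it and 22 were not apart from it.

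The same receptors were also high in mice given acetophenone and decanal together. Olfr332 was at 110.5, 137.1 and 128.3 CPM in the mixture, Olfr716 at 61.1, 66.6 and 95.6 CPM and Olfr1408 at 52.9, 34.2 and 54.5 CPM. Each mixture library lay between the controls and the decanal libraries for these 3 genes. The mixture held both odorants in equal parts and shares its controls with decanal, so only the values are given.

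Octanal, also a straight-chain aldehyde but with a shorter chain than decanal, was given at the same volume and for the same time in another batch with its own controls. A single model of 24 libraries set the 2 responses, each against its own controls, side by side. Of 922 receptor genes tested, 38 had a larger change with decanal and 144 with octanal, where 13.1% and 16.1% of all genes tested were called in these directions. Against its own controls octanal had 184 of 858 receptor genes called higher, against 17.9% of all genes. It shared 46 of them with decanal, which is 69.7% of the genes that rose with decanal and 25.0% of those that rose with octanal. Of the 66 that rose with decanal, 19 changed more with decanal than with octanal, 12 less, and for 35 the difference was not called. Choosing genes by their change with decanal favours a larger decanal change in this comparison.

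Some receptor genes changed more with decanal than with octanal. Olfr1344 was at 12.3 ± 2.59 CPM with decanal against 0.361 ± 0.170 CPM in its controls, and at 0.985 ± 0.327 CPM with octanal against 1.26 ± 0.993 CPM (SD, n = 3; difference of log2 changes 5.43, 95% interval 3.87 to 6.98, adjusted p = 1.32e-05, edgeR). Olfr1254 changed by 3.96 with decanal and 0.33 with octanal (difference 3.65 ± 0.37, SE; adjusted p = 6.16e-07). Olfr129 changed by 4.34 and 0.04. Olfr1426 changed by 4.09 and 0.72 and Olfr55 by 4.75 and 1.70, and octanal raised both of these over its own controls as well (adjusted p = 0.0241 and 0.00163). All 3 differences were called. Other leading genes did not differ at this precision. For Olfr1383 the changes were 5.04 and 5.07 (difference -0.01, interval -0.63 to 0.61, adjusted p = 0.991). Olfr716 gave 4.72 and 5.08 (difference -0.32, interval -0.98 to 0.33, adjusted p = 0.474). For Olfr509 the difference was -0.74, with an interval of -1.63 to 0.15 (adjusted p = 0.208). Of the 16 receptor genes with the smallest p, 8 changed more with decanal and 8 were not called.

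Genes that changed less with decanal than with octanal included some that fell with decanal. Olfr59 changed by -1.95 with decanal and 2.26 with octanal (difference -4.19, interval -4.99 to -3.40, adjusted p = 2.11e-07, edgeR). It was at 26.9 ± 9.07 CPM in the controls of decanal and 4.44 ± 0.248 CPM in those of octanal (SD, n = 3). Olfr124 changed by -1.22 and 3.02, with controls at 50.0 ± 20.9 and 14.1 ± 1.23 CPM. The levels of the 2 control groups were thus unlike for these genes, which was not tested. These CPM values and the changes with each odorant were scaled within each batch. The differences of changes came from the single model, in which all 24 libraries were scaled together. By family, MOR256 had 28 of 42 members called higher with octanal and 9 of 44 with decanal, and the difference was called in favour of octanal for 24 of 44 and of decanal for none. In MOR267 it was called in favour of decanal for 4 and of octanal for 3 of 14, and in MOR111 for 2 and none of 9.

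**Figure D3:**
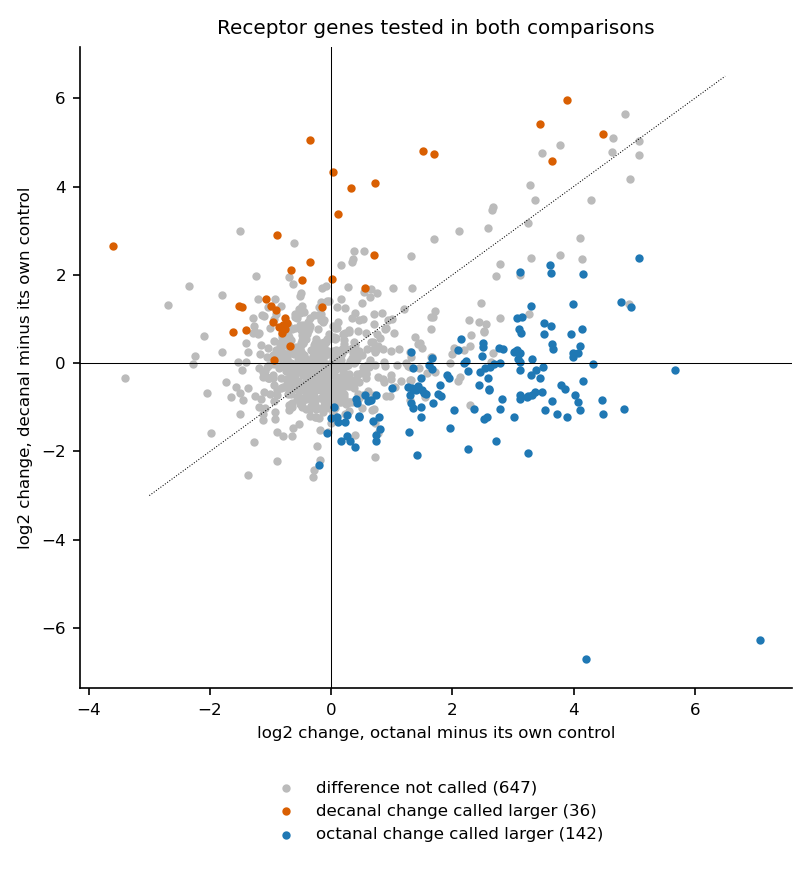
Log2 change with octanal (x axis) and with decanal (y axis), each against its own controls, for the 825 receptor genes tested in both fits; orange marks a difference called in favour of decanal (36), blue in favour of octanal (142) and grey no call, and the dotted line marks equal changes. Points at the upper right rose with both aldehydes, and blue points extend along the x axis at decanal changes near or below 0. The 2 blue points below -6 are Olfr898 and Olfr1166, and the fitted value of Olfr898, at 0 counts in every decanal library, depends on the prior count.

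Several genes of the transduction cascade rose. Of 20 tested, 9 were called higher and 1 lower, with a list median of 0.28 against -0.0023 over all genes tested. The shares called over all genes were 10.8% higher and 11.5% lower. Omp, the marker protein of mature olfactory neurons, was at 4460, 4014 and 4841 CPM in controls and 9476, 9333 and 8807 CPM with decanal (log2 change 1.05 ± 0.15, adjusted p = 0.000305, edgeR). Gng13, a G protein gamma subunit of the cascade, rose by 1.36 ± 0.20 (adjusted p = 0.00041). Reep1 and Rtp2, linked to receptor transport, rose by 0.74 and 0.54. Gnal, which encodes the Golf alpha subunit, and Cnga2, a subunit of the transduction channel, were called at 0.34 and 0.33 (adjusted p = 0.0343 and 0.0373), calls that several alternatives lose. Ebf2, a transcription factor of the neuronal lineage, fell by 0.44 on the log2 scale (adjusted p = 0.00153). Of 20 genes that end the response or adapt it, 6 were called higher and none lower. These included Slc8a1, a sodium-calcium exchanger (0.98), and Vsnl1, a calcium sensor (1.00). The list's median was -0.02, and 0.03 when libraries were scaled to the median receptor gene.

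Immediate early genes, which neurons transcribe within minutes of firing, did not move as a block. Of 24, 7 were called higher and 2 lower, where 10.8% and 11.5% of all genes were called in these directions. The list median was 0.07, or -0.01 with total counts. Fosb was at 3.26, 1.50 and 2.21 CPM in controls and 16.4, 11.5 and 15.1 CPM with decanal (log2 change 2.61 ± 0.37, adjusted p = 0.000356, edgeR). Egr4 rose by 2.34 ± 0.35 (adjusted p = 0.000478), and Nr4a1, a nuclear receptor, from 46.2 ± 15.2 to 156.6 ± 24.7 CPM (SD, n = 3; log2 change 1.76, adjusted p = 0.000684). Fos itself, which was looked up by name, rose by 0.67 ± 0.19 (adjusted p = 0.0242). Arc, whose messenger RNA marks recent synaptic activity in brain neurons, went the other way: 19.5, 22.0 and 20.2 CPM in controls against 8.64, 9.15 and 8.53 CPM with decanal (log2 change -1.23 ± 0.12, adjusted p = 3.5e-05). Its groups were each tight and far apart. Arc had means of 22.8 CPM with acetophenone and 13.9 CPM in the mixture. In the no-odor controls of the octanal batch, scaled within that batch, its mean was 9.09 CPM. With octanal it was 10.8 CPM and was not called (adjusted p = 0.585, edgeR). Arc levels across batches were not tested. Jun, the other gene called lower, changed by -0.24 (adjusted p = 0.0325).

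Activity-dependent effector and peptide genes split in a like way, with 7 of 23 called higher and 2 lower (list median 0.08, or -0.0049 with total counts). The shares over all genes were 10.8% and 11.5%. Cartpt, which encodes a neuropeptide, was at 51.3, 52.3 and 55.0 CPM in controls and 215.8, 214.7 and 178.5 CPM with decanal (log2 change 1.94 ± 0.14, adjusted p = 1.47e-06, edgeR). Rasl11a, a small GTPase of the Ras family, was at 13.2, 15.5 and 12.8 CPM and then at 54.1, 49.6 and 47.0 CPM (log2 change 1.86 ± 0.11, adjusted p = 1.43e-07). No decanal library of either gene came near a control. Heg1, Nptx2 and Lrrc3b rose by 1.55 to 1.67. S100a5, a calcium-binding protein of odor-driven neurons that was looked up by name, rose by 0.79 ± 0.26 (adjusted p = 0.0405). The 2 called lower, named after their values were seen, were the peptide genes Scg2, by -0.89, and Adcyap1, by -3.21 from a level of at most 2.15 CPM.

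In the list of axon sorting and glomerular map genes, 8 of 21 were called higher and none lower (list median 0.22). Among all genes tested, 10.8% were called higher and 11.5% lower. Pcdh10, a protocadherin, was at 28.5, 11.6 and 11.7 CPM in controls and 78.6, 68.9 and 68.3 CPM with decanal (log2 change 2.05 ± 0.40, adjusted p = 0.00249, edgeR). Plxna1, a semaphorin receptor subunit, rose by 1.32 ± 0.13 (adjusted p = 2.91e-05). Nqo1, a quinone reductase known for its zonal expression in the epithelium, rose by 1.88 ± 0.24 (adjusted p = 0.000189). Nqo1, an enzyme, is one of the 8 and is also counted in the oxidative stress list. Kirrel2, an adhesion protein whose level follows neuronal activity, was looked up by name and rose by 1.30 ± 0.26 (adjusted p = 0.0029). Plxna4, in no list and among the 10 other genes with the smallest p, rose from 32.8 ± 0.675 to 71.4 ± 1.33 CPM (SD, n = 3; adjusted p = 1.99e-05). Kirrel, an adhesion gene of the same family as Kirrel2, was also called higher (log2 change 1.45, adjusted p = 4.05e-05).

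Some markers of the earlier neuronal lineage fell. Of 5 markers of globose basal cells and neuronal precursors, 3 were called lower and none higher, among them Top2a, which changed by -0.98, and Neurod1, by -0.73 on the log2 scale. Over all genes 11.5% were called lower. Mki67, of the same list, was at 7.17 ± 2.22 CPM in controls and 11.9 ± 2.31 CPM with decanal (SD, n = 3; adjusted p = 0.069, edgeR), and DESeq2 called 1 member of the list higher. Of 5 immature neuron markers, Dpysl3 (-0.59) and Tubb3 (-0.29) were called lower. Both lost their call when libraries were scaled to the median receptor gene. Of 5 sustentacular markers, Cyp1a2 (-1.14) and Cyp2a5 (-0.76) were called lower, with a list median of -0.29. Of 5 Bowman gland markers, Sox9 (-0.75) and Aqp5 (-0.63) were called lower, but the list median was -0.04, or 0.002 when scaled to the median receptor gene, and the summed level overlapped, at 1318 to 1571 CPM in controls and 1203 to 1887 CPM with decanal.

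Enzymes that metabolise aldehydes and other odorants fell far more often than they rose. Of 43 tested, 18 were called lower and 1 higher, with a list median of -0.38, against 11.5% of all genes called lower. Aldh3a2, the fatty aldehyde dehydrogenase, was at 97.7, 93.5 and 92.0 CPM in controls and 53.7, 60.5 and 67.4 CPM with decanal (log2 change -0.64 ± 0.10, adjusted p = 0.000499, edgeR). Aldh9a1 changed by -0.83, Aox3, an aldehyde oxidase, by -1.27, and Ephx1, an epoxide hydrolase, by -0.78. Cyp2f2, a cytochrome P450 of supporting cells and glands, was at 1510, 1756 and 1801 CPM in controls and 719.6, 699.9 and 867.4 CPM with decanal (log2 change -1.15 ± 0.18, adjusted p = 0.000684). Supporting cells and glands express many of these enzymes. The sustentacular markers summed to 4371 to 4907 CPM in controls and 2983 to 3292 CPM with decanal beside them, and their part in this fall was not tested. The 2 lists overlap: the markers Cyp1a2 and Cyp2a5 are also among the 18 enzymes called lower. Cyp2a5 alone was at 2621 to 3055 CPM in controls and 1513 to 1884 CPM with decanal. The exception was Sult1d1, a sulfotransferase, which rose by 0.56 (adjusted p = 0.00366). Odorant-binding and gland secretion genes showed 1 call in 21, Bpifb3, lower by -0.63.

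Ribosomal protein and elongation factor genes rose nearly as a whole, in 38 of 41 cases, with a list median of 0.62 and none called lower. Among all genes tested, 10.8% were called higher and 11.5% lower. Rps24 rose from 77.2 ± 1.82 to 136.4 ± 4.42 CPM (SD, n = 3; log2 change 0.82, adjusted p = 0.000242, edgeR). Rps6, the target of the antibody, rose by 0.50 ± 0.10 (adjusted p = 0.00332). Nuclear genes of oxidative phosphorylation rose in 17 of 33 cases and none fell (median 0.35). Mitochondrially encoded genes rose in 12 of 13 cases, with a median of 2.57; mt-Co1 was at 249.3, 177.7 and 211.9 CPM in controls and 1059, 1059 and 1604 CPM with decanal (log2 change 2.54 ± 0.30, adjusted p = 0.000116). Neither group of libraries entered the range of the other. Calls of higher genes moved with transcript length, though not through to the longest genes. Protein-coding genes other than receptors were split into 5 equal bins by median transcript length. From the shortest bin to the longest, 16.2%, 11.6%, 9.17%, 6.08% and 8.7% were called higher. Calls of lower genes showed no steady trend, at 14.7%, 13.6%, 13.6%, 16.3% and 11.97%. The median change was 0.03 in the shortest bin, -0.14 in bin 4 and -0.08 in bin 5. Of the ribosomal protein list 65.9% lay in the shortest bin and of the oxidative phosphorylation list 69.7%. The median transcript length was 658 bases in the ribosomal protein list and 871.5 bases in the secretory pathway list. The part of length in these list results was not tested. With acetophenone mt-Co1 was at 204.4, 338.4 and 369.8 CPM, and in the mixture at 667.1, 1667 and 1226 CPM. In the no-odor controls of the octanal batch, scaled within that batch, mt-Co1 was at 1695, 1659 and 2109 CPM. With octanal it was at 258.7, 338.8 and 461.3 CPM. Rps21 had a mean of 97.0 CPM in those controls and 45.1 CPM with octanal. Its means here were 18.6 CPM in controls and 32.0 CPM with decanal. Levels across batches were not tested.

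Several coat protein genes of the secretory pathway fell. Of 25 genes in the list of the secretory pathway and coat complexes, 11 were called lower and none higher, with a list median of -0.27, where 11.5% of all genes were called lower. The other 14 were not called. Copb1, a subunit of the COPI coat, was at 134.3, 129.7 and 130.4 CPM in controls and 50.1, 60.3 and 60.9 CPM with decanal (log2 change -1.20 ± 0.09, adjusted p = 3.93e-06, edgeR). Arcn1, Copg1 and Copb2, also of COPI, and Sec31a, of COPII, fell by 0.79 to 1.09 on the log2 scale. Among the genes in no list that were called lower with the smallest p, Jup and Ctnna1, of cell junctions, fell by 1.13 and 0.88, and Nr1d1, a clock repressor, fell by 1.22. Copb1 was at 139.6 to 157.1 CPM with acetophenone and at 60.1 to 65.7 CPM in the mixture, so that the mixture, like decanal, lay below the controls. In the no-odor controls of the octanal batch, scaled within that batch, Copb1 was at 25.26 to 35.55 CPM, and with octanal at 41.99 to 77.38 CPM. Hba-a1, a red blood cell gene, had means of 17622 CPM in those controls and 3426 CPM with octanal. Its means here were 3656 CPM in controls and 8097 CPM with decanal. Whether these genes, the mitochondrial genes and the red blood cell genes differ for a reason other than the odor was not tested.

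The receptor choice and chromatin list moved both ways, with 5 of 18 called higher and 5 lower. For this and the next lists, the shares over all genes were 10.8% higher and 11.5% lower. Kdm1a, the histone demethylase LSD1 that acts when a receptor gene is chosen, fell from 269.1 ± 9.63 to 138.4 ± 8.09 CPM (SD, n = 3; log2 change -0.96, adjusted p = 3.96e-05, edgeR), while Tsc22d1 rose by 1.43 ± 0.15 (adjusted p = 5.74e-05). In the unfolded protein response list 6 of 22 were called higher and none lower, led by Selenot (1.27) and with Atf5, a transcription factor of receptor feedback, at 0.98. Heat shock and proteasome genes had 4 of 20 lower, among them Hsph1 (-0.90) and Hspa8 (-0.44), and 1 higher. In the oxidative stress list 4 of 21 were called each way. The S6 kinase and translation control list had 1 of 20 higher, Rps6, and 3 lower, Tsc2 (-0.69), Rps6ka1 (-0.65) and Sesn2 (-0.49). Motile cilia genes had 2 of 26 higher and 1 lower, and interferon-stimulated genes 1 of 20 each way.

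Other chemosensory genes gave no call in edgeR, where 22.3% of all genes were called either way. Of 7 trace amine-associated receptors tested, none was called, 1 had an unadjusted p under 0.05 and DESeq2 called none; the most shifted, Taar7f, was at 0.795, 1.37 and 0.261 CPM in controls and 1.38, 3.48 and 1.43 CPM with decanal (adjusted p = 0.136). Of 17 genes of non-canonical sensory neurons none was called, with 3 at an unadjusted p under 0.05 and 1 called by DESeq2. Among non-neuronal cell types, no marker was called for microvillous cells, respiratory ciliated cells, ensheathing glia, endothelium, fibroblasts and bone, osteoclasts, muscle or red blood cells; the unadjusted p was under 0.05 for 4 of 5 red blood cell genes and for 1 gene each of the ciliated, fibroblast and muscle lists, and DESeq2 called 1, in the fibroblast list. Neutrophil markers Ngp and Mpo rose by 2.11 and 2.32, the macrophage marker C1qa by 0.52 and the horizontal basal cell marker Krt14 by 0.60. The neutrophil list summed to 86.1 to 180.8 CPM in controls and 163.6 to 197.2 CPM with decanal.

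Of the other genes called higher that are in no list, those with the smallest p were Med21 (1.17), Fam213b (1.33), Macf1 (1.35), Bmp6 (1.37), Bmpr2 (1.08), Olig1 (0.99), Nxnl2 (1.30) and the mitochondrial ribosomal RNA mt-Rnr2 (2.66) beside Plxna4 and Kirrel. With octanal against its own controls, Macf1 changed by -1.17 and mt-Rnr2 by -2.46 on the log2 scale (adjusted p = 0.000613 and 0.00189, edgeR). Med21, Fam213b, Bmp6, Bmpr2, Olig1 and Nxnl2 were called higher with octanal, and Plxna4 and Kirrel were not called. Bmp6 and Bmpr2 are a ligand and a receptor of bone morphogenetic protein signalling. Bmp6 was at 11.9, 12.4 and 13.2 CPM in controls and 35.7, 31.8 and 29.4 CPM with decanal (log2 change 1.37 ± 0.13, adjusted p = 3.5e-05, edgeR). All 3 decanal libraries were more than double the controls.

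**Figure D4:**
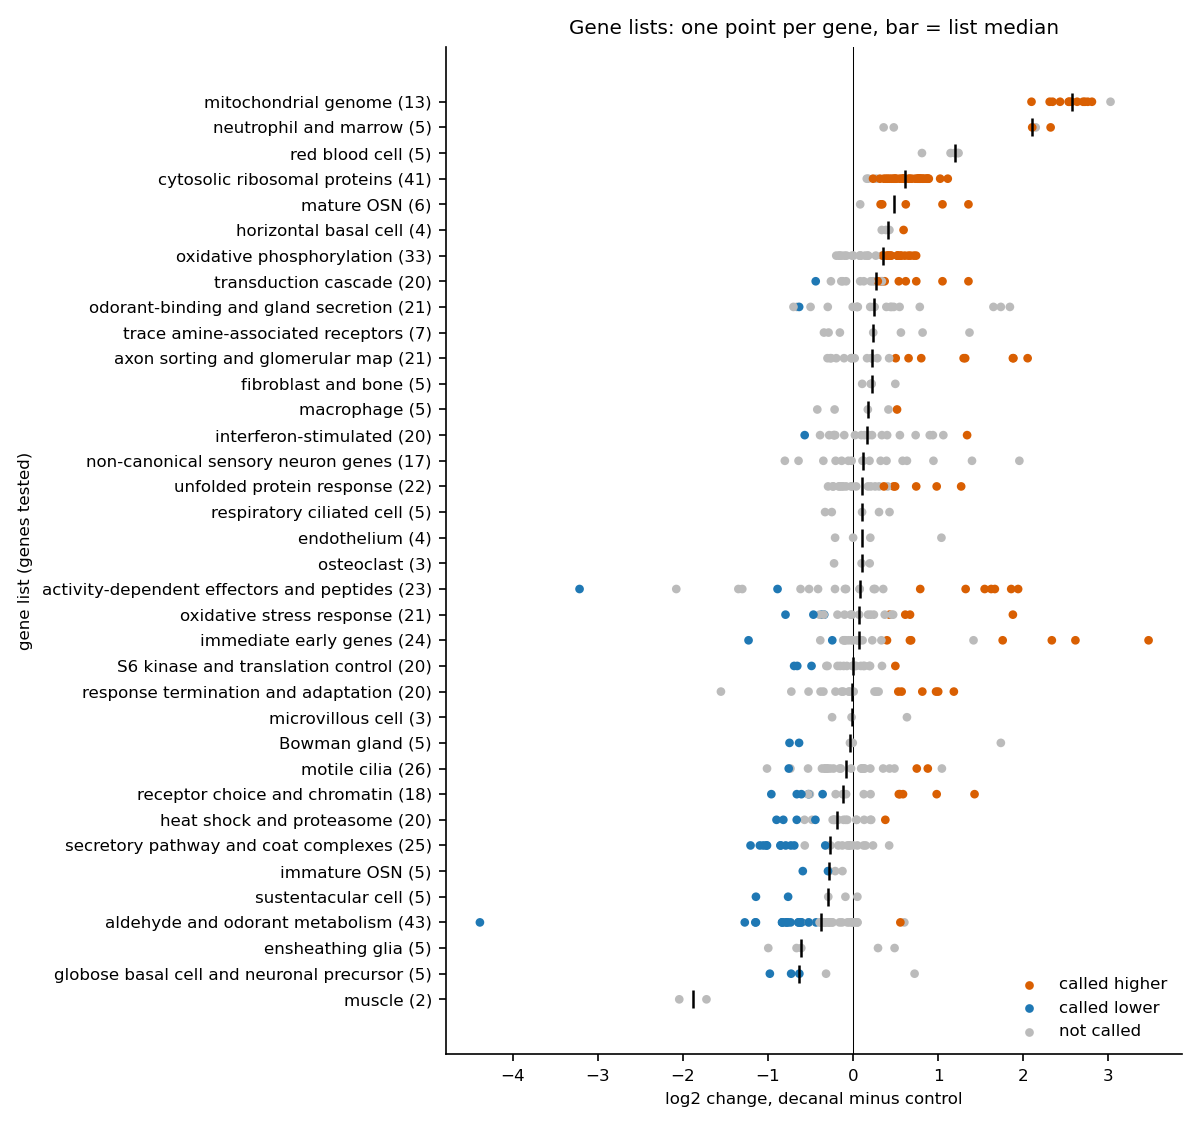
Log2 change, decanal minus control, of single genes (points) in 36 gene lists, with the number tested in brackets and the list median as a bar; orange is called higher, blue called lower and grey not called. Mitochondrial and ribosomal protein genes lie almost wholly to the right, with medians of 2.57 and 0.62, and the aldehyde metabolism list lies mostly to the left with a median of -0.38.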

How the data were processed

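The authors deposited expected counts for each gene; 11.9% to 12.6% of the values were fractional, and they were rounded here. The submitters' processing notes list GRCm39 as the build and, as tools, Salmon 1.10.1, R 4.4.2 and STAR 2.7.10b; the annotation and the step that gave the counts are not given in the sources used here. Of 57010 identifiers, 52081 were named from GENCODE vM21 (GRCm38), so no positions are printed. Receptor genes are Olfr symbols typed as protein coding, and MOR families came from RefSeq synonyms (class I is family 1 to 42, and MOR0 is no family). The 12 libraries of the batch were fitted in edgeR 4.0.16 (filterByExpr, minimum count 10, minimum total 15; TMM; quasi-likelihood test, 2-sided). SE is the log2 change over the square root of F, and intervals cover 95%. Shared stretches were found with blastn 2.17.0 (95% identity over 200 bases) between whole transcripts of receptor genes, not only their coding sequences. Intervals from counts cover counting error only. The members and lists were chosen with earlier results of these data known. Genes named were the 16 receptor genes called higher, the 10 called lower, and 10 other genes each way with the smallest p and groups apart, up to 5 called members per list, and Olfr2; predicted genes and pseudogenes were left out, and a few genes were looked up by name. A few genes that this rule names are not reported here. The method was tested on simulated data. No 2 libraries of a group agreed within sampling noise. Alternatives used other scalings, DESeq2 1.42.0, other filters, other sets of libraries and a replicate block.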

Additional observations from a re-analysis of the deposited data

How the results depend on the processing

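The 124 receptor calls stayed within 1.5 times under every alternative tried. They were 124 with DESeq2's size factors, 105 scaled to the median receptor gene, 129 with total counts and 151 in DESeq2. With no filter they were 140, with only the 6 libraries 144 and with all 36 libraries 159. Without the genes that share a near-identical transcript stretch with another receptor gene, 84 were left. Leaving out 1 library gave 92 to 109. Over the 14 other fits, 50 of the 66 genes called higher and 28 of the 58 called lower kept their calls. The 4354 calls over all genes fell to 2206 when scaled to the median receptor gene, and the cause was not tested; that scaling moved the median of all genes by 0.05. Leaving out 1 library gave 2879 (without decanal 1, fewer samples) to 3846. Receptor calls of decanal against acetophenone were 206 to 247 on leaving out a library, against 268, and those against the octanal response 154 to 183, against 182. The receptor share ratio of 1.24 ran from 1.19 to 1.28. Replicate numbers did not pair the samples (correlations of deviations -0.04, 0.18 and -0.08; 1 of 3 decanal libraries was nearest to the control of its own number). With a replicate block 120 receptor genes, 3921 genes in all and 249 receptor genes against acetophenone were called. Of 142 named genes called, 120 kept their call in all 14 fits and no direction reversed. Aqp5, Cyp2a5 and Tubb3 lost theirs in 5 of the fits, and Olfr774 lost its call without control 1. Gnal, Cnga2, C1qa and Stat2 lost theirs in 7 or more.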
